A study of Mus musculus with 4 samples.

Results

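The cytosolic ribosomal proteins are the protein components of the ribosomes that translate nuclear-encoded messages. Their genes were taken by symbol (Rpl or Rps followed by a digit, Rplp0 to Rplp2, Rpsa and Fau). The S6 kinases, Rps19bp1 and rows named as pseudogenes or not annotated as protein-coding were left out. This gave 89 of the 27179 genes measured. Of these, 78 are canonical genes, 46 for the large (60S) and 32 for the small (40S) subunit. The other 11 matched by symbol and are called paralogs here. How alike their proteins are to the canonical ones was not checked. All 89 genes are protein-coding.

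RNA was measured by sequencing in the kidney medulla, the inner zone of the kidney, of mice on postnatal day 14. There were 2 libraries labelled KO, from mice with floxed Actr3 alleles and the Cdh16-Cre transgene, and 2 labelled WT, given as wild-type control. All 4 are listed as C57BL/6 mixed, and the protocol names 2 animals of each genotype. Cdh16 is a cadherin of the kidney tubule epithelium, so Cre driven from its promoter acts in tubule cells and leaves blood vessel, connective tissue and immune cells with intact alleles. Actr3 encodes a core subunit of the Arp2/3 complex, which nucleates branched actin filaments.

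Each ribosome holds a single copy of most ribosomal proteins, and the genes for them are read at high and closely matched rates in growing and secreting cells. Their mRNAs typically begin with a cytosine followed by a run of pyrimidines, the 5′ terminal oligopyrimidine tract, through which mTORC1 and the RNA-binding protein Larp1 control their translation. The proteins are made in the cytoplasm, carried to the nucleolus by dedicated chaperones and built onto ribosomal RNA there. Unassembled ribosomal proteins are quickly degraded. Ribosome production is known to rise in cells that grow or re-enter the cell cycle, tubule epithelium included.

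The 4 libraries held 36482238 to 40784436 reads assigned to genes, with 18972 to 19249 genes detected in each. The targeted gene did not fall: Actr3 had normalized counts of 8065 and 7275 in WT-labelled libraries and 12587 and 12480 in KO-labelled ones, 0.71 ± 0.082 higher on the log2 scale (SE; adjusted p = 0.000494 by limma). Counts per whole gene include exons outside the deleted stretch and RNA of cells without Cre, so they do not check the deletion, and the groups are named by their labels throughout. Cdh16 was lower in the KO-labelled libraries, at 41457 and 37685 against 84350 and 99754. Markers of the medulla were present in all libraries. Umod of the thick ascending limb was at 136828 and 143709 in WT-labelled libraries and 203680 and 138033 in KO-labelled ones. Aqp2 of the collecting duct was at 27437 and 34871 against 6961 and 4576. Of the listed thick ascending limb markers 3 of 5 were lower and 1 higher, and of the collecting duct markers 6 of 7 were lower. Over all tested genes, 24.9% were lower and 26.3% higher.

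Sequences at the annotated starts of 7 canonical genes and 3 paralogs show what an annotated start with and without the pyrimidine tract looks like. The sequences were picked as examples. Annotated starts were not checked against measured 5′ ends, so a gene without the tract at its annotated start may still carry it. Each line gives 15 bases before the start and 15 bases from the start on, 5′ to 3′, from RefSeq on GRCm38.p6. Capitals mark the unbroken run of C and T that holds the first transcribed base. The first 6 canonical genes and the paralog Rpl32l have the tract at the start. Rpl12 and the paralogs Rpl22l1 and Rpl36al have no such run there and so no capitals. In Rpl12 and Rpl22l1, though, a C followed by 4 pyrimidines begins within 5 bases of the start.
Rps6 (chr4:86857353-86857382, minus strand): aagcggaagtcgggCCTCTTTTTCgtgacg
Rps27 (chr3:90213634-90213663, minus strand): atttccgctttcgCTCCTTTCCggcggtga
Rps18 (chr17:33955651-33955680, minus strand): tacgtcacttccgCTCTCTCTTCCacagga
Rplp2 (chr7:141447636-141447665, plus strand): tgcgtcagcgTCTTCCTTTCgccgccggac
Rpl28 (chr7:4792950-4792979, plus strand): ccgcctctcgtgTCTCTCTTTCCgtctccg
Fau (chr19:6057932-6057961, plus strand): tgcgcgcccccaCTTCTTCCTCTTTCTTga
Rpl12 (chr2:32961697-32961726, plus strand): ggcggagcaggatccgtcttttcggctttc
Rpl32l (chr10:20208424-20208453, plus strand): aaataaaatgaccagCTTCTTCCTTggtgc
Rpl22l1 (chr3:28805493-28805522, plus strand): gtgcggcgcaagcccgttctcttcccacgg
Rpl36al (chr12:69184053-69184082, minus strand): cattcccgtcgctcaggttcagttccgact

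RefSeq windows were matched for 58 of the 78 canonical genes and for all 11 paralogs. A start with C followed by 4 pyrimidines was found in 14 of the 58 canonical windows (24.1%), in 2 of 11 paralog windows (Rpl32l and Rps27rt), in 3.07% of the 12397 windows of tested genes and in 3.01% of all 27025 windows. Allowing the same pattern to begin within 5 bases of the start raised this to 28 of 58 (48.3%), against 23.6% of tested genes. CGGAAG on either strand, which can overlap a pyrimidine run because its reverse complement is CTTCCG, was present between 250 bases before and 50 bases after the start in 40 of 58 canonical genes (69%). It was present in 3 of 11 paralogs, in 31.1% of tested genes and in 18.8% of all windows. The 14 canonical genes with the pattern at the annotated start had a median log2 difference of 0.59 (0.44 to 0.75) between KO-labelled and WT-labelled libraries. The other 44 had a median of 0.66 (0.34 to 0.92). Some of the 44 have the pattern within 5 bases of the start, so this does not compare genes with and without the tract.

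The canonical genes rose almost as a block in the KO-labelled medulla. By limma on log2(normalized count + 1), 76 of 78 were higher at an adjusted p under 0.05 and 0 were lower, where 26.3% of the 16253 tested genes were higher and 24.9% lower (51.2% either way). Counting at an unadjusted p under 0.05 also gave 0 members lower, paralogs included, and so did edgeR and DESeq2 on the recovered reads. The median canonical log2 difference was 0.63, with the middle 50% of genes between 0.54 and 0.71, while the median of all tested genes was 0.00. The 76 genes that passed rose 1.26- to 1.90-fold, with 73 of them between 0.4 and 0.95 on the log2 scale. In 77 of the 78, both KO-labelled values lay above both WT-labelled values, against 39.8% of tested genes. In bulk tissue, a change in the number of cells of a type and a change in RNA per cell cannot be told apart.

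**Figure D1:**
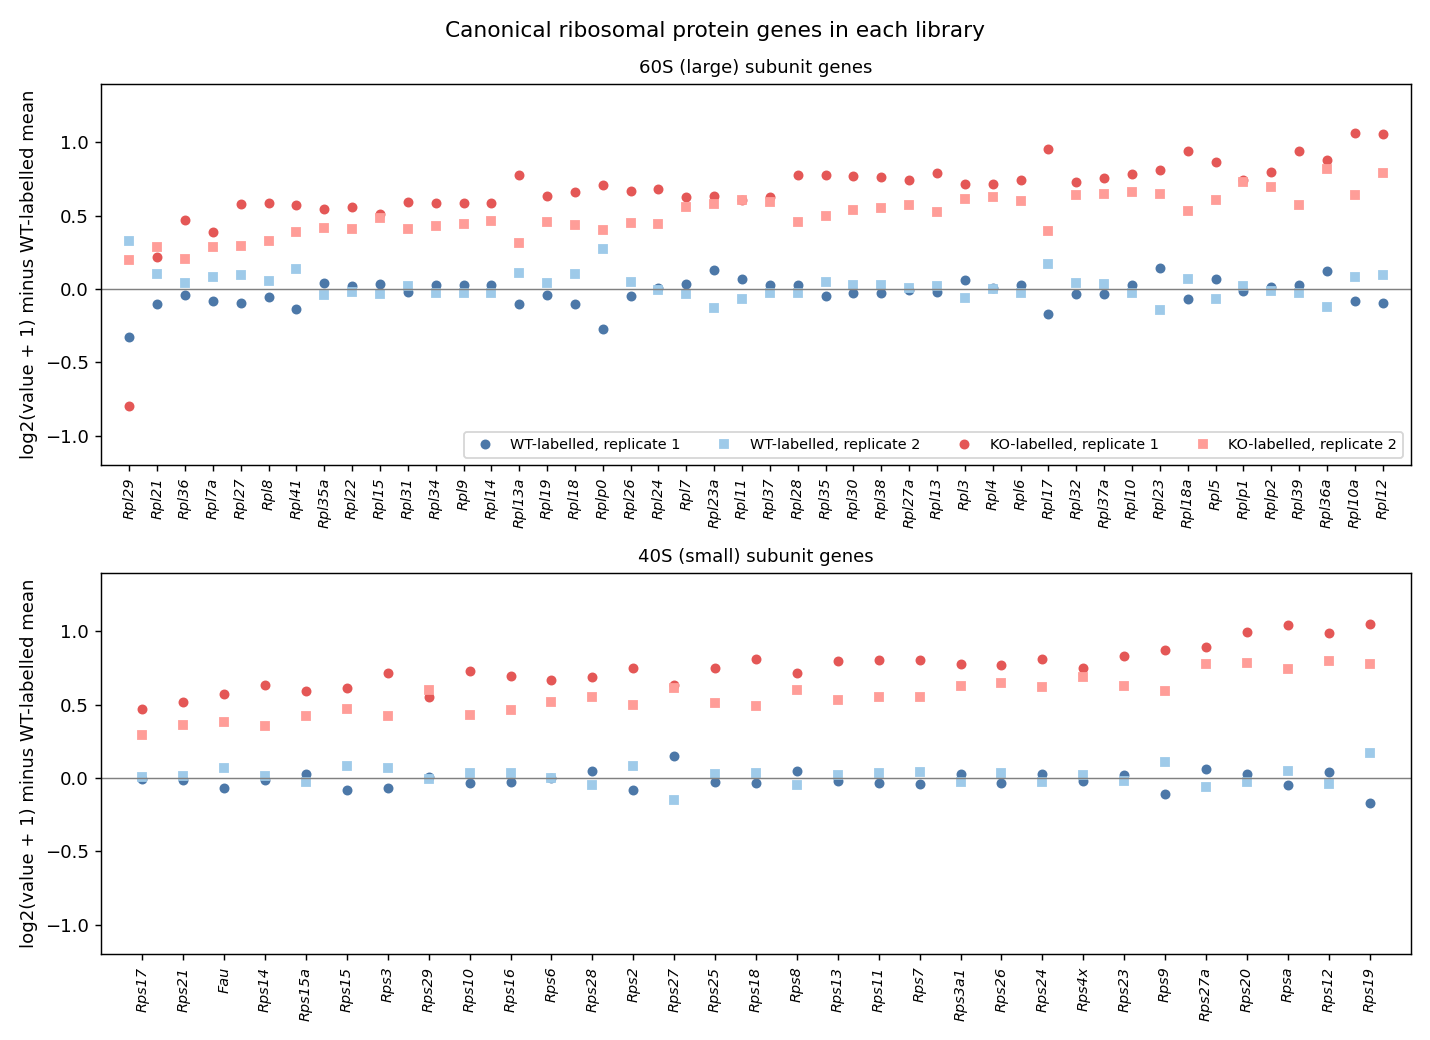
Canonical genes are shown on the x axis (1 gene is not drawn), ordered by its log2 difference within its subunit, with log2(normalized count + 1) in each library minus the WT-labelled mean on the y axis. Circles are replicate 1 and squares replicate 2 of each group; apart from Rpl29 at the left of the 60S panel, both KO-labelled points lie above both WT-labelled points.

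Summed over all 89 genes, ribosomal protein reads were 0.998% and 1.03% of all assigned reads in the WT-labelled libraries and 1.70% and 1.51% in the KO-labelled libraries. This share is free of the size factors. It was 1.01% ± 0.0212 (SD, n = 2) against 1.60% ± 0.137 (SD, n = 2), a 1.58-fold higher share, with an exact permutation p = 0.333, two-sided, the smallest that 2 against 2 samples can give. The groups did not overlap.

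The small subunit genes all rose, 32 of 32, with a median of 0.66 on the log2 scale and a range of 0.38 to 0.91. Rps19, in which mutations cause Diamond-Blackfan anaemia, had normalized counts of 2890 and 3650 in WT-labelled libraries and 6735 and 5558 in KO-labelled ones. Rpsa, a 40S protein also known as the laminin receptor precursor, stood at 4425 and 4723 against 9402 and 7635. The KO-labelled values of both genes were all well above the WT-labelled ones, and the first KO-labelled library was the highest. Rps19 rose 1.88-fold (log2 0.91 ± 0.137, SE; limma adjusted p = 0.00161) and Rpsa 1.86-fold (log2 0.89 ± 0.11; adjusted p = 0.000674).

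Rps12, a protein of the 40S beak known in flies as a sensor in cell competition, was at 3843 and 3623 against 7393 and 6476. Rps20, a protein of the 40S head, was at 4594 and 4439 against 9012 and 7762. In both, the WT-labelled libraries lay close together and the KO-labelled values were separated from them by far more than either group's spread. Rps12 rose by 0.89 ± 0.0908 on the log2 scale (limma adjusted p = 0.000291) and Rps20 by 0.89 ± 0.0925 (adjusted p = 0.000319). Rps3, which lines the entry of the mRNA channel, was at 21329 and 23490 against 36802 and 29989, a log2 difference of 0.57 ± 0.119 (adjusted p = 0.00672). Rps6, the 40S protein phosphorylated by the S6 kinases downstream of mTORC1, was at 4893 and 4882 against 7777 and 6991. It rose 1.51-fold (log2 0.59 ± 0.0822; adjusted p = 0.00111), near the median of its subunit.

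A pair of small ribosomal proteins are made as fusions that are cleaved after translation. Rps27a, fused to ubiquitin, was at 2431 and 2233 in WT-labelled libraries and 4318 and 3986 in KO-labelled ones (log2 0.83 ± 0.087; limma adjusted p = 0.000326). Fau, fused to the ubiquitin-like Fubi, was at 4214 and 4635 against 6563 and 5763 (log2 0.48 ± 0.0948; adjusted p = 0.0055). Both rose with no overlap, Rps27a more than most of the 40S genes and Fau less. Rack1, the scaffold protein at the head of the 40S subunit, lies outside the naming rule and rose from 11493 and 11974 to 22035 and 18788 (log2 0.79 ± 0.0978; adjusted p = 0.000654).

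Of the large subunit genes, 44 of 46 rose, with a median of 0.61. Rpl12, at the base of the stalk that recruits translation factors, showed the highest log2 difference of all members. Its values were 2477 and 2833 in WT-labelled libraries and 5498 and 4593 in KO-labelled ones, a 1.90-fold rise (log2 0.92 ± 0.113; limma adjusted p = 0.00065). Rpl10a, the protein of the mobile L1 stalk on the opposite side, was at 2928 and 3290 against 6499 and 4834. Its KO-labelled libraries lay further apart than those of Rpl12, and it rose 1.82-fold (log2 0.85 ± 0.143; adjusted p = 0.0026). The smallest rises that passed were those of Rpl36 (0.34 ± 0.108; adjusted p = 0.0365) and Rpl7a (0.34 ± 0.0957; adjusted p = 0.023), which were chosen after their values were seen. Rpl36 missed the threshold without the first WT-labelled, the second WT-labelled or the first KO-labelled library, with no filter, with no variance trend and with the replicate block. Rpl7a missed it without the first WT-labelled or the first KO-labelled library and with no variance trend.

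The stalk itself is built of Rplp0 and dimers of the acidic proteins Rplp1 and Rplp2, which bind elongation factors. Rplp1 was at 7055 and 7227 against 11946 and 11860. Rplp2 was at 4875 and 4775 against 8401 and 7799. Within each group the libraries were close for both genes, which rose by 0.74 ± 0.0721 and 0.75 ± 0.0771 on the log2 scale (limma adjusted p = 0.000247 and 0.000308). Rplp0, often used as a reference gene in quantitative PCR, was at 13568 and 19869 against 26842 and 21731. Its groups did not overlap, yet the WT-labelled pair was wide, and its log2 difference of 0.56 ± 0.185 passed narrowly (adjusted p = 0.0408). Without the first WT-labelled library the Rplp0 difference was 0.28 (adjusted p = 0.182), and without the first KO-labelled library it was 0.40 (adjusted p = 0.157). With all libraries, Rplp0 also missed the threshold with no filter on low values (adjusted p = 0.0812), under a robust trend (adjusted p = 0.0864) and with the variance trend left out (adjusted p = 0.138).

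Rpl5 and Rpl11 join the 5S ribosomal RNA before assembly, and the free particle binds Mdm2 and so stabilises p53 when ribosome production is disturbed. Rpl5 was at 6997 and 6342 against 12158 and 10140 (log2 0.74 ± 0.107; limma adjusted p = 0.00138). Rpl11 was at 3608 and 3293 against 5260 and 5244 (log2 0.61 ± 0.0804; adjusted p = 0.0009). Both rose within the range of the other large subunit genes and with no overlap. Rpl4, a protein of the polypeptide exit tunnel, had some of the highest counts of all members, 20644 and 20536 against 33756 and 31757, and rose by 0.67 ± 0.0829 (adjusted p = 0.000673). Rpl8, which contacts the peptidyl transferase centre, was at 18840 and 20336 against 29441 and 24551, a difference of 0.46 ± 0.109 (adjusted p = 0.0117). Rpl8 missed the threshold without the first WT-labelled (adjusted p = 0.0661) or the first KO-labelled library (adjusted p = 0.0819), and with no variance trend (adjusted p = 0.059).

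The 3 canonical genes with the lowest counts gave the least certain values. Rpl39, a very short protein of the exit tunnel, was at 65.0 and 62.6 against 123 and 95.2 (log2 0.75 ± 0.251; limma adjusted p = 0.0407). Its groups did not overlap, but the call was lost when the first WT-labelled, the second WT-labelled or the first KO-labelled library was left out (adjusted p = 0.105, 0.123 and 0.213). With all libraries the Rpl39 call was also lost with no filter (adjusted p = 0.0631), with quantile normalization (log2 0.58; adjusted p = 0.0988), by DESeq2 (adjusted p = 0.0968) and with the replicate block (adjusted p = 0.0568). Rpl21 was at 265 and 305 against 330 and 347, with no overlap and a difference of 0.25 ± 0.156 that did not pass (adjusted p = 0.218). Rpl29 was at 16.7 and 26.8 against 11.8 and 24.5, the only canonical gene whose groups overlapped (log2 -0.30 ± 0.492; adjusted p = 0.635). Rpl29 and Rpl21 shared 50-base stretches of their transcript with 84 and 82 other genes in the GENCODE annotation, and 33.2% and 73.8% of their stretches were unique. Rpl7a, which passed, shared stretches with 123 other genes, and the canonical median of unique stretches was 44.3%. Over 100-base stretches, Rpl21 shared with 40 other genes, Rpl7a with 37 and Rpl29 with 27, among the most of the canonical genes. Whether such sharing bears on their counts was not tested.

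Such sharing was general, with 77 of 78 canonical genes having a 50-base stretch in common with at least 1 other gene. How reads that fit several genes were counted is not given in the sources used here, so counts of single genes are uncertain where copies exist. Among the 31 canonical genes with at least 50% unique stretches, 30 were higher with a median of 0.66. Among the 47 with less, 46 were higher with a median of 0.62, so genes with mostly unique and mostly shared sequence had similar rises.

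Compared as reads per kilobase of coding sequence, scaled to a common library size of 1e6 assigned reads, the median canonical level was 236 in the WT-labelled and 369 in the KO-labelled libraries. On this scale the highest WT-labelled levels were those of Rps14 (806), Rps3 (769) and Rpl8 (636). The lowest were those of Rpl29 (1.13), Rpl39 (10.4) and Rpl21 (14.9), which are the same 3 genes as by count. This scale ignores untranslated sequence and how reads from copies were counted, and it compares levels between genes, not differences between groups.

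The rise was uneven between the KO-labelled libraries. The first exceeded the second in 75 of 78 canonical genes, with a median log2 gap of 0.18, where the gap over all tested genes was 0.01. In the WT-labelled libraries the first exceeded the second in 33 of 78, with a median gap of -0.04. Set against the WT-labelled mean, the median canonical gene was 0.73 higher in the first KO-labelled library and 0.54 higher in the second. The gap between these libraries was thus shared across genes, but smaller than the distance of either from the WT-labelled pair.

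**Figure D2:**
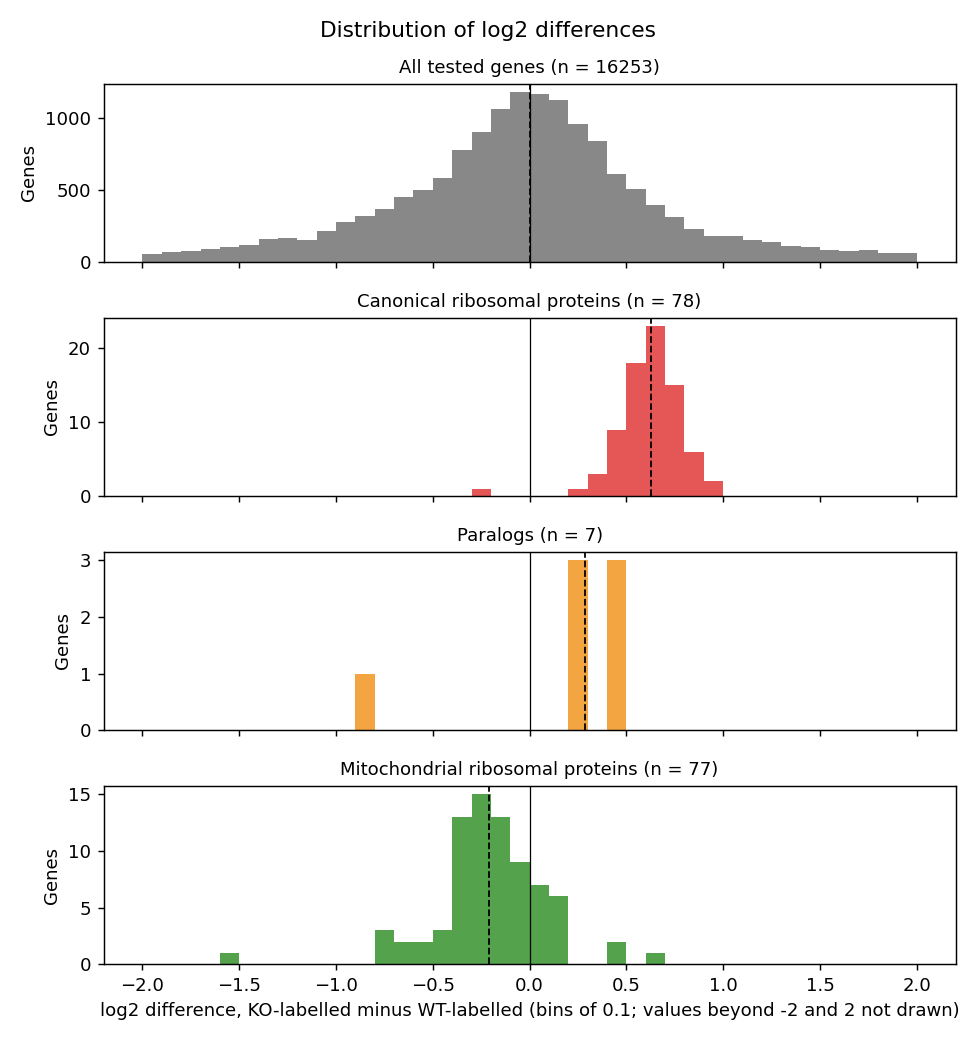
Histograms of the log2 difference, KO-labelled minus WT-labelled, for all tested genes, canonical ribosomal proteins, paralogs and mitochondrial ribosomal proteins, with the number of genes on the y axis. Dashed lines mark medians; the canonical genes stand in a narrow peak around 0.63, and the other 3 sets have medians of 0.00, 0.28 and -0.21.

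Other genes of similar count or length had medians near 0. Of 8119 other genes whose normalized count averaged 1000 or more, 26.4% were higher and 27.2% lower, with a median of 0.00. Of 295 other protein-coding genes that averaged 1000 or more and had a transcript under 1000 bases, 78 were higher and 101 lower, with a median of -0.01. Genes of the mitochondrial ribosome, which translates the few messages of the mitochondrial genome, gave 3 higher and 22 lower of 77 tested, with a median of -0.21. The log2 ratio of summed cytosolic to summed mitochondrial ribosomal protein reads was 1.87 and 1.79 in WT-labelled libraries and 2.76 and 2.68 in KO-labelled ones. The groups did not overlap, and the difference was 0.89 (exact permutation p = 0.333, the smallest possible).

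Among the paralogs 1 gene passed the test. Of the 11, 7 passed the filter on low counts, 1 was higher and 0 lower, where 26.3% and 24.9% of tested genes were. At an unadjusted p under 0.05, 0 were lower. Rpl22l1, a 60S paralog that Rpl22 protein is known to hold down, was at 1981 and 2015 in WT-labelled libraries and 2793 and 2643 in KO-labelled ones. The groups were far apart for their spread, and Rpl22l1 rose 1.36-fold (log2 0.44 ± 0.0809; limma adjusted p = 0.00379). Its partner Rpl22 went from 6013 and 5867 to 8730 and 7895 (log2 0.48 ± 0.0815; adjusted p = 0.00269). Their log2 ratio was -1.60 and -1.54 in WT-labelled libraries and -1.64 and -1.58 in KO-labelled ones, an overlap, with a difference of -0.04 (exact permutation p = 0.667).

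The other abundant paralogs had smaller differences than their partners. Rpl36al, the autosomal copy of the X-linked Rpl36a, was at 1599 and 1647 against 2189 and 1784 (log2 0.28 ± 0.114; limma adjusted p = 0.0752). Rpl36a itself went from 2293 and 1936 to 3873 and 3719 (log2 0.85 ± 0.101; adjusted p = 0.000566). The log2 ratio of copy to partner was lower in both KO-labelled libraries, by 0.56 on average. Only 36.7% of the 50-base stretches of Rpl36al and 14.5% of those of Rpl36a are unique, so this ratio depends on how shared reads were counted. Rpl36al passed without the second KO-labelled library, at 0.43 (adjusted p = 0.0252).

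Rps27l, a paralog of Rps27 that p53 induces, was at 2322 and 2407 against 2989 and 2580 (log2 0.23 ± 0.0964; limma adjusted p = 0.0825). Rps27 was at 4081 and 3320 against 5714 and 5626 (log2 0.62 ± 0.108; adjusted p = 0.00297), but only 1.35% of its 50-base stretches are unique. Rpl7l1, a Rpl7-like protein, was at 3789 and 4099 against 4851 and 4311 (log2 0.21 ± 0.0907; adjusted p = 0.0866). All 3 of Rpl36al, Rps27l and Rpl7l1 had both KO-labelled values above both WT-labelled ones without passing the test. Over all tested genes, 39.8% were so placed. The log2 ratio fell in both KO-labelled libraries for Rps27l to Rps27, by 0.39 on average, and for Rpl7l1 to Rpl7, by 0.38.

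**Figure D3:**
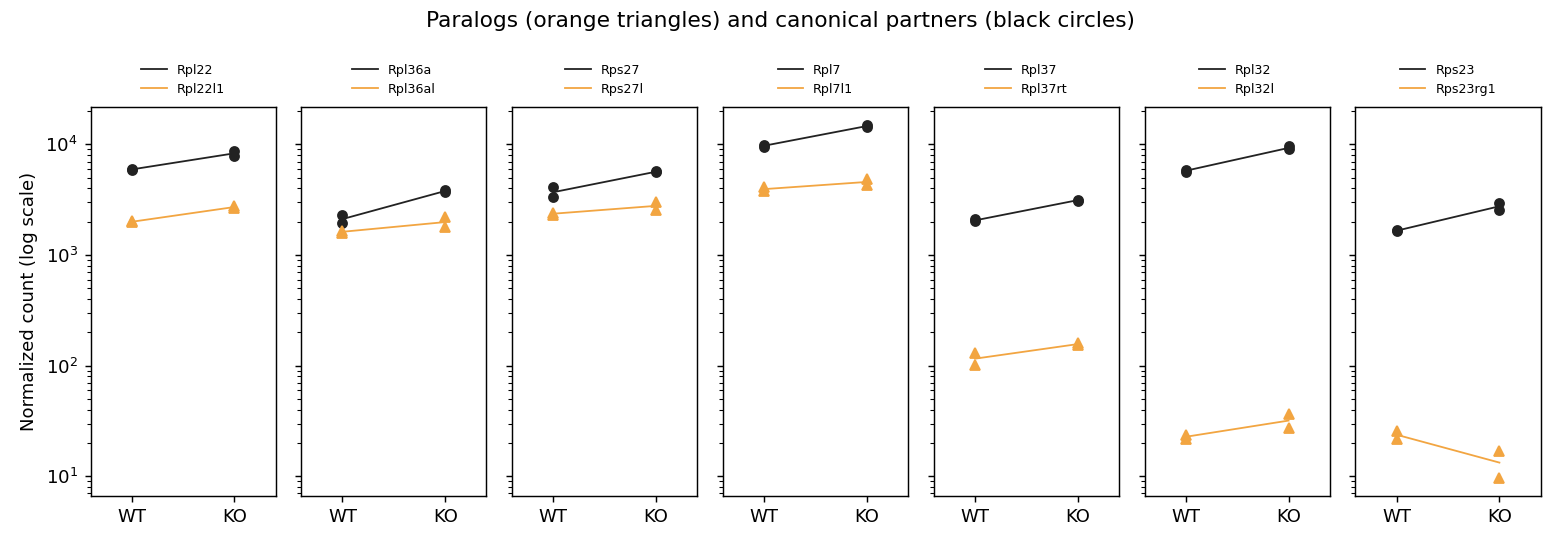
Normalized counts on a log axis in the WT-labelled (WT) and KO-labelled (KO) libraries for each tested paralog (orange triangles) and its canonical partner (black circles), with lines joining group means. Lines of Rpl22l1 and Rpl22 run nearly parallel, and that of Rpl36al is flatter than that of Rpl36a.

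Low-count copies had the widest errors. Rpl37rt, a retrocopy of Rpl37, was at 131 and 100 against 152 and 161 (log2 0.45 ± 0.221; limma adjusted p = 0.132). Rpl32l was at 21.7 and 23.9 against 36.5 and 27.3 (log2 0.46 ± 0.355; adjusted p = 0.316). Rps23rg1, a retroposed copy of Rps23, was at 21.7 and 25.8 against 9.65 and 17.0 (log2 -0.83 ± 0.441; adjusted p = 0.154). Rps23rg1 was the only tested member with both KO-labelled values below both WT-labelled ones, where 38.7% of tested genes were so placed. Rpl3l, the heart and skeletal muscle form of Rpl3, was under the filter at 8.86 and 16.9 against 5.36 and 4.71, from 26 and 10 reads in the groups. Rps27rt was at 0.985 and 4.97 against 4.29 and 8.48. Rpl39l and Rpl10l, forms known from the testis, had 0 reads in the WT-labelled group and 10 and 1 reads in the KO-labelled group. These 4 genes were too low for the test.

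Over the 9 paralog pairs whose ratio was compared, the ratio of paralog to partner was lower in both KO-labelled libraries in 6, higher in both in 0, and overlapped in 3. Each of the 6 had an exact permutation p = 0.333 (adjusted over the 9 pairs, p = 0.5), the smallest the design can give. Library scaling cancels in these ratios. Canonical genes had a median log2 difference of 0.63 and all tested genes one of 0.00. A paralog with no change would thus also give a lower ratio to its partner. The matching share over all genes was not computed. Among the 6, Rpl32l, Rps23rg1 and Rpl3l averaged only 27.3, 18.5 and 8.96 normalized counts. The KO-labelled minus WT-labelled difference ranged from -1.81 for Rpl3l to Rpl3, which rests on few reads, to 0.42 for Rps27rt to Rps27, which overlapped (exact permutation p = 1).

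Other genes of protein synthesis were followed by list; among all tested genes 26.3% were higher and 24.9% lower. Of 7 tested elongation factor genes, 5 were higher and 1 lower, with a median of 0.51. Eef1b2, a nucleotide exchange factor for eEF1A, went from 10040 and 9484 to 17681 and 15866 (log2 0.78 ± 0.0869; limma adjusted p = 0.000426). Eef1a1, which brings aminoacyl-tRNA to the ribosome, rose by 0.66, Eef1g by 0.62 and Eif5a by 0.51. Eif5a2, the gene that fell, did so by 0.36 and was named after its value was seen. Of 38 initiation factor genes, 20 were higher and 1 lower, with a median of 0.23. Among them Pabpc1, the poly(A)-binding protein, rose by 0.83, Eif3f by 0.66 and the helicase Eif4a1 by 0.61, while its homologue Eif4a2 fell by 0.59.

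Genes that build ribosomes are read against the same 26.3% higher and 24.9% lower of all tested genes. Of 55 biogenesis factors, 23 were higher and 1 lower, with a median of 0.21; the gene that fell was Gnl3l, named after its value was seen. Npm1, the nucleolar chaperone nucleophosmin, was at 7760 and 7014 against 14061 and 14267, a 1.92-fold rise (log2 0.94 ± 0.082; limma adjusted p = 0.000148). The nucleolar GTPase Gnl3 rose by 0.82, Utp14a of the small subunit processome by 0.77 and Nop58 of the box C/D particles by 0.56. Of 9 dedicated ribosomal protein chaperone and nascent-chain genes, 6 were higher and 3 did not pass, with a median of 0.35. They include Grwd1, a chaperone of Rpl3, at 0.68, Btf3 at 0.57 and Naca at 0.44. RNA polymerase I and its factors gave 5 higher and 1 lower of 12, with a median of 0.08; Polr1c rose by 0.57 and Taf1a fell by 0.58.

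Of 11 small nucleolar RNA host genes, which like ribosomal protein mRNAs often begin with a pyrimidine tract, 5 were higher and 6 did not pass, with a median of 0.58, where 26.3% of all tested genes were higher. Snhg5 rose by 1.03, Zfas1 by 0.85 and Snhg1 by 0.82, each with no overlap between groups, whereas Gas5 was at 3429 and 3126 against 3292 and 3361. The list of 22 genes for mTORC1 and for regulators of pyrimidine-tract mRNAs also holds transcription factors, Myc among them. It gave 7 higher (31.8%) and 8 lower (36.4%) with a median of 0.00. These shares were not far from the 26.3% and 24.9% of all tested genes. Myc, a transcription factor whose known targets include ribosomal protein and biogenesis genes, was at 1489 and 990 against 3784 and 3580, a 2.97-fold rise (log2 1.60 ± 0.178; limma adjusted p = 0.000421). Eef2k, the kinase that inhibits eEF2, rose by 0.73. Mlst8, an mTOR complex subunit, fell by 0.69, and Larp4, a binder of poly(A) tails, fell by 0.44.

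**Figure D4:**
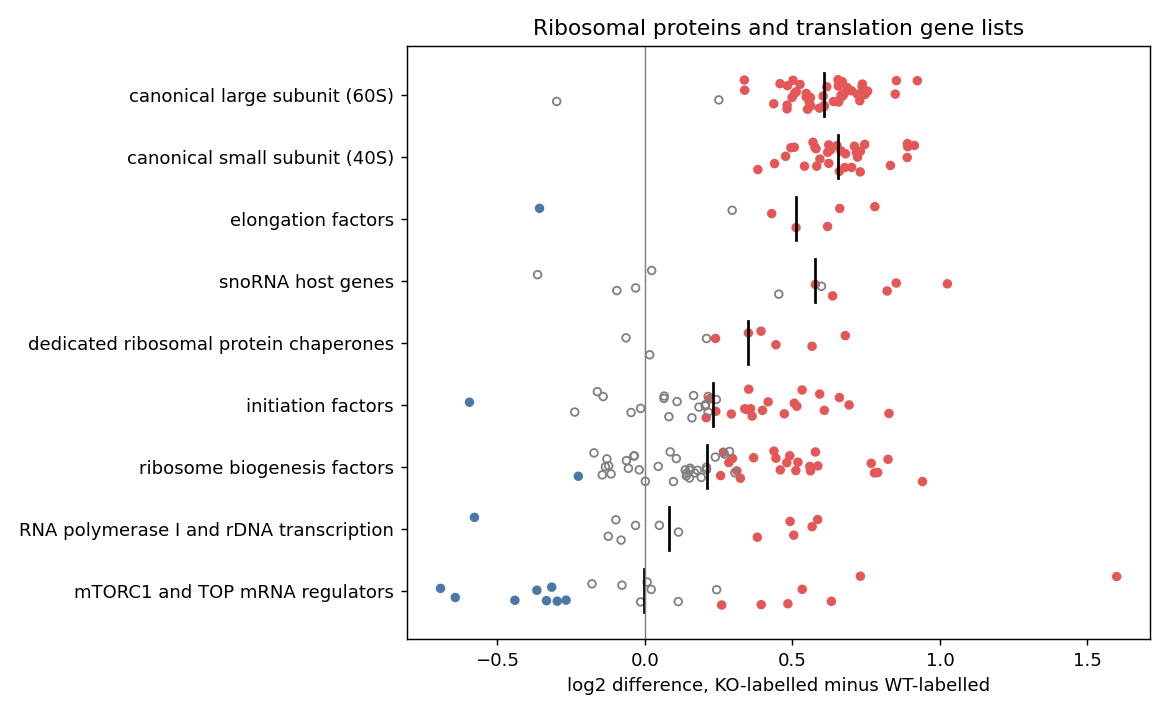
The log2 difference, KO-labelled minus WT-labelled, of each tested gene (points, spread vertically for legibility) in the 2 subunits and 7 related lists, with medians as black bars. Red points passed as higher, blue as lower and open grey points did not pass. The medians run from 0.66 for the 40S genes to 0.00 for the list of mTORC1 and TOP regulators, which also holds transcription factors.

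Markers of other cell types were also measured, to be read against the 26.3% of all tested genes that were higher and the 24.9% that were lower. All 15 macrophage and dendritic cell markers were higher, with a median log2 difference of 2.46, and their summed normalized counts were 16325 to 20180 in the WT-labelled and 75800 to 81279 in the KO-labelled libraries. All 10 injured-tubule markers were higher, with sums of 56022 to 59699 against 499623 to 595485. Of 11 tested T, B and NK cell markers 6 were higher, with sums over the 16 listed genes of 943 to 1275 against 2450 to 2875. Of 12 cycling-cell genes 5 were higher and 1 lower, with sums of 15003 to 15676 against 17187 to 20387. Of the thick ascending limb markers 3 of 5 were lower and 1 higher, with sums of 416361 to 421413 against 174200 to 251864, and of the collecting duct markers 6 of 7 were lower, with sums of 56126 to 66671 against 15882 to 20211. Of 3 tested neutrophil markers 1 was higher, and the 3 tested erythroid markers were lower, with sums of 2705 to 3033 against 568 to 831. None of the markers measured was at 0 in all libraries. The part of these cell types in the ribosomal protein values was not tested.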

How the data were processed

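The values are a signal, normalized counts that the authors deposited after dividing each read count by its library's size factor, as read from the values: after division by each library's step, 100% were whole within 0.001. The submitters' processing notes list the tools HISAT2 (2.2.1), DESeq2 (2.11.40.7), fastp (0.20.1) and featureCounts (2.0.1), and the build mm10 or GRCm38. What they used as annotation, strand setting and rule for multiply mapped reads is not given in the sources used here. Recovered reads, up to 40784436 per library, cover counting error only. Groups and replicate numbers come from the sample titles. That each library is a separate animal is inferred from the protocol; otherwise p-values measure technical spread only.

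Symbols for 25275 of 27179 gene IDs, coordinates and start windows come from RefSeq tables of GRCm38.p6, and transcripts from GENCODE on GRCm38. Differences were tested on log2(value + 1) by limma 3.58.1 in R 4.3.3, with trended variance and two-sided, for 16253 genes with a mean of at least 10, adjusted by Benjamini-Hochberg over all of them with a threshold of 0.05; fold changes are on that scale or ratios of group means. It was tested on simulated data. Single values were compared by exact permutation. Members and lists were chosen with earlier results of these data known. Named genes were all paralogs, the 6 canonical genes with the largest rises, the stalk, 5S and fusion genes, Rps6, Rpsa, the 3 highest and 3 lowest canonical genes, and up to 4 genes per list by adjusted p. As alternatives, the pseudocount, filter, scaling and variance model were changed, and further fits used edgeR 4.0.16, DESeq2 1.42.0, a replicate block, pseudogene rows added to parents, and leaving out each library. Some genes are not reported here by name; they remain in the counts and medians.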

Additional observations from a re-analysis of the deposited data

How the results depend on the processing

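Across the alternatives that kept all libraries, 68 to 77 ribosomal protein genes were higher (main value 77 of 85 tested) and 0 were lower. Over all tested genes, 4277 of 16253 were higher in the main test and 3424 with no variance trend, the setting that gave 68. The median log2 difference of the ribosomal protein genes was 0.52 to 0.72 across all alternatives. The lowest median came without the first KO-labelled library and the highest without the second. With the replicate number as a block 75 were higher; the labels pair no libraries, and the deviations of same-numbered libraries correlated at -0.06. Leaving out 1 library at a time gave differences in the share of reads of 0.492 to 0.686 percentage points. The log2 ratio difference of Rpl37rt to Rpl37 ranged from -0.32 to 0.000655 and that of Rps27rt to Rps27 from -0.526 (without the first WT-labelled library) to 1.36, with -0.0143 without the second KO-labelled library. With a pseudocount of 5 the latter was -0.0879. Rpl29 ranged from -0.80 to 0.198, with 0.0258 without the second WT-labelled library; these signs changed among values that never passed, and the cause was not tested. Of the single genes named, 922 values kept direction and side of the threshold, 24 lost the threshold, 1 gained it and 2 reversed. Paralogs under 30 counts are limited by depth.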

Other observations

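Matching rows named as ribosomal protein pseudogenes or not annotated as protein-coding were kept apart from the 89 genes. There were 35 of them, 8 at 0 in all libraries, and together they held 0.338% to 0.425% of the summed values of the 89 genes. Of the 10 that passed the filter, 3 were higher by limma and 7 did not pass, a share near the 26.3% of all tested genes that were higher. Rps15a-ps4, the highest of them, was at 1063 and 822 in WT-labelled libraries and 1334 and 1350 in KO-labelled ones (log2 0.52 ± 0.136; limma adjusted p = 0.0167), with no overlap. Rps4l, related to the X-linked Rps4x, was at 424 and 461 against 488 and 545 (log2 0.22 ± 0.135; limma adjusted p = 0.207). Both were named after their values were seen, and reads of parents and copies may be shared between them.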
